A study of Homo sapiens with 8 samples.

Results

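TXNIP encodes thioredoxin-interacting protein, an alpha-arrestin, and was measured here with its relatives ARRDC1, ARRDC2, ARRDC3 and ARRDC4 and with the thioredoxin system genes TXN, TXN2 and TXNRD1. The members were all probe sets whose only gene symbol in the platform annotation is 1 of these 8 genes, out of 19775 genes with such a probe set. There were 14 member probe sets among 54613 tested: 3 for TXNIP, 2 each for ARRDC1, TXN, TXN2 and TXNRD1, and 1 each for ARRDC2, ARRDC3 and ARRDC4. A probe set is the group of short oligonucleotides on the array that together report a transcript, and its value is a log2 expression level. Of the 14, 11 had a mean above 4.73, the highest value of the 27 Bacillus probe sets that were used here as negative controls. This use assumes that no Bacillus RNA was added to the samples. No filter on low values was applied.

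The cells were CCRF-CEM-C7-14, a glucocorticoid-sensitive clone of the CEM line, which came from a human acute lymphoblastic leukaemia of T cells. All groups, untreated cells included, were grown in charcoal-stripped serum, from which steroid hormones have been largely removed. There were 3 arrays of untreated cells at 0 h, 3 arrays after 2 h in 1 µM dexamethasone and 2 arrays after 10 h in 1 µM dexamethasone. Dexamethasone is a synthetic glucocorticoid that activates the glucocorticoid receptor, a hormone-dependent transcription factor. With no vehicle group at either later time used here, the hormone and the time in stripped medium cannot be told apart. The arrays are labelled as biological replicates without further detail on the cultures. Their spread may therefore be technical, and the p-values refer to that spread only.

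Alpha-arrestins share the arrestin fold with the arrestins of receptor signalling and act as adaptors that bring NEDD4-family ubiquitin ligases to membrane proteins. TXNIP binds reduced thioredoxin and blocks it, and it also promotes removal of glucose transporters from the cell surface. In many cells its gene is driven by MondoA and MLX, transcription factors that sense glucose phosphates and bind the carbohydrate response element of the promoter, and in lymphoid cells TXNIP has been known as a glucocorticoid-raised gene. Thioredoxin reduces disulfides in other proteins and is itself reduced by thioredoxin reductase with NADPH.

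The promoters of TXNIP and ARRDC4 are shown because the pair is known for shared control by MondoA, while only TXNIP passed the tests below. ARRDC4 lay near the negative controls, so its lack of a call does not show that it did not respond. Both sequences are from RefSeq (GRCh38.p14) and run from 250 bases before to 50 bases after the start of the gene. The TXNIP window is chr1:145996530-145996829 on the minus strand and the ARRDC4 window is chr15:97960453-97960752 on the plus strand. Capitals mark matches to the motifs searched, on either strand.
TXNIP: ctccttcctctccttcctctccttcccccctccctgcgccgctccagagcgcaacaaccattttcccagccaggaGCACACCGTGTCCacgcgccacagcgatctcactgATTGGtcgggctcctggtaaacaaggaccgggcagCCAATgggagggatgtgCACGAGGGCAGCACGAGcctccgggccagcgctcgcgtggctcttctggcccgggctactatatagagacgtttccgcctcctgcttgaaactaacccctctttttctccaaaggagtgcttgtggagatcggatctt
ARRDC4: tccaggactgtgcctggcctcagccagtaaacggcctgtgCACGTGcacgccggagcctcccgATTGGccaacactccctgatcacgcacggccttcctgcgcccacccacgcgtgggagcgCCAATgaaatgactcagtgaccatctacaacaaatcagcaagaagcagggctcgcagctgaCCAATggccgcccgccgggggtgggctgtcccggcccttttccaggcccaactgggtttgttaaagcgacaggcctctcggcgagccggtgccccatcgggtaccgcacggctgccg

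The TXNIP window held 1 match to the carbohydrate response element, searched as CACGNG, 5 bases of any kind and CACGNG again, beginning 88 bases before the start of the gene. That motif was present in 0.057% of the 35116 promoter windows of this length. The same TXNIP window held 1 match to a relaxed form of the palindrome bound by the glucocorticoid receptor, searched as GNACA, 3 bases of any kind and TGTNC, beginning 175 bases before the start. This form occurred in 0.39% of all windows. It also held 2 CCAAT boxes, searched as CCAAT, a motif in 34.6% of windows. The ARRDC4 window held 1 E-box, searched as CACGTG and found in 7.26% of windows, and 3 CCAAT boxes, but no match to the spaced repeat or to the relaxed palindrome. Of the marked matches in these 2 windows none overlapped another. A second TXNIP window in the table, from another start of the gene, held none of the 5 motifs. The antioxidant response element core, searched as TGACNNNGC and found in 13.3% of windows, had no match in either window, 2 in the first TXNRD1 window, 1 in the second and 1 in the first ARRDC2 window. Sequences of 7 of the 8 genes were found, in 11 windows, and TXN2 was the gene without one. A match is a match of letters, binding was not measured, and no link of a motif to the response was tested. Only the forms given were searched, so a missing match does not show that a looser form of an element is absent.

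Array medians ran from 4.68 to 5.01, and 0 h replicate 2, 2 h replicate 3 and 10 h replicate 1 had the 3 lowest. These 3 low-median arrays, 1 of each time, are drawn as open points in the plots by array, and results are given with and without them where it matters. Markers of the T lineage had a mean above the negative controls on 10 of 11 genes, and CD2 was the exception. Their mean log2 level was 9.09 to 9.11 at 10 h, against 8.85 to 9.18 at 0 h. Myeloid markers were above the negative controls on 2 of 6 genes and natural killer markers on 1 of 4. B-lineage markers were above them on 5 of 6 genes, at a mean log2 level of 5.75 to 5.78 at 10 h and 5.49 to 5.92 at 0 h. Erythroid markers were above the negative controls on 1 of 2 genes. Epithelial and stromal markers were above on 4 of 6, at a mean of 5.81 to 5.83 at 10 h and 5.70 to 5.86 at 0 h. Lying above this limit was thus not particular to the T lineage. No marker probe set of these 6 lists was called in any of the 3 comparisons. At an unadjusted p below 0.05, 2 of 19 T-lineage and 2 of 17 B-lineage probe sets were higher at 10 h against 0 h. None of either list was lower, and 2.68% of all probe sets had such a p in either direction. TSC22D3, which encodes GILZ, was read as a check of the hormone response. On 208763_s_at it rose by 4.30 on the log2 scale (SE 0.22) at 10 h against 0 h (limma adjusted p = 1.96e-07). FKBP5, a co-chaperone of the receptor, rose on all 3 of its probe sets. These genes come from a list of 10 known glucocorticoid-raised genes, 9 of them measured. The list was chosen with earlier results of these data known, so its counts are no independent support. At 10 h against 0 h, 19 of its 30 probe sets, of 6 genes, were called higher and 0 lower. The lowest value was −0.18. Over all probe sets 0.245% were called higher. Another TSC22D3 probe set, 207001_x_at, rose by 1.37, a call lost in 11 of 19 alternatives. The remaining one, 235364_at, was not called and had no limma unadjusted p below 0.05 in any comparison. NR3C1, which encodes the receptor, rose by 1.49 to 1.80 on its called probe sets. Its probe set 232431_at was not called, with mean log2 levels of 4.73 at 0 h and 6.58 at 10 h.

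The question of the longer treatment was which transcripts differed after 10 h of hormone. TXNIP rose on all 3 of its probe sets, by 2.45- to 2.69-fold, while none of the 11 probe sets of the other 7 genes was called. In limma with Benjamini-Hochberg adjustment over all 54613 probe sets, 3 of the 14 were called higher and 0 lower at an adjusted p below 0.05. Over all probe sets 0.245% were called higher and 0.00549% lower. The same 3 members were those with an unadjusted p below 0.05, as 2.68% of all probe sets had. The 3 TXNIP probe sets report transcripts of the same gene, so they are not 3 independent results.

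Probe set 201010_s_at of TXNIP had log2 levels of 9.15, 8.65 and 8.74 on the 0 h arrays, 8.44, 9.05 and 8.85 on the 2 h arrays, and 10.08 and 10.47 on the 10 h arrays. Both 10 h arrays lay above all 6 others, and the 2 h arrays overlapped the 0 h arrays. Its mean over the 2 arrays at 10 h was 10.27 ± 0.27 (SD), against 8.85 ± 0.27 (SD) over the 3 arrays at 0 h. The log2 fold change was 1.43 ± 0.23 (SE), which is 2.69-fold (95% interval 1.91 to 3.81, limma adjusted p = 0.0117).

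Probe set 201008_s_at of TXNIP read 8.0, 7.80 and 7.64 at 0 h, 8.28, 7.80 and 8.12 at 2 h, and 8.69 and 9.57 at 10 h. The 2 arrays at 10 h again lay above the other 6 but were 0.88 apart. Its log2 fold change at 10 h against 0 h was 1.32 ± 0.25 (SE; 2.5-fold, interval 1.72 to 3.62, limma adjusted p = 0.0420). Probe set 201009_s_at read 9.07, 8.58 and 8.41 at 0 h, 9.14, 9.11 and 8.75 at 2 h, and 9.66 and 10.30 at 10 h. It showed the same order, with both 10 h arrays on top. Its log2 fold change was 1.29 ± 0.25 (SE; 2.45-fold, interval 1.70 to 3.53, limma adjusted p = 0.0439). Over the 8 arrays the probe sets of TXNIP correlated at 0.846 to 0.938 (Pearson), values that share the same arrays and depend on the 2 high arrays at 10 h.

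**Figure D1:**
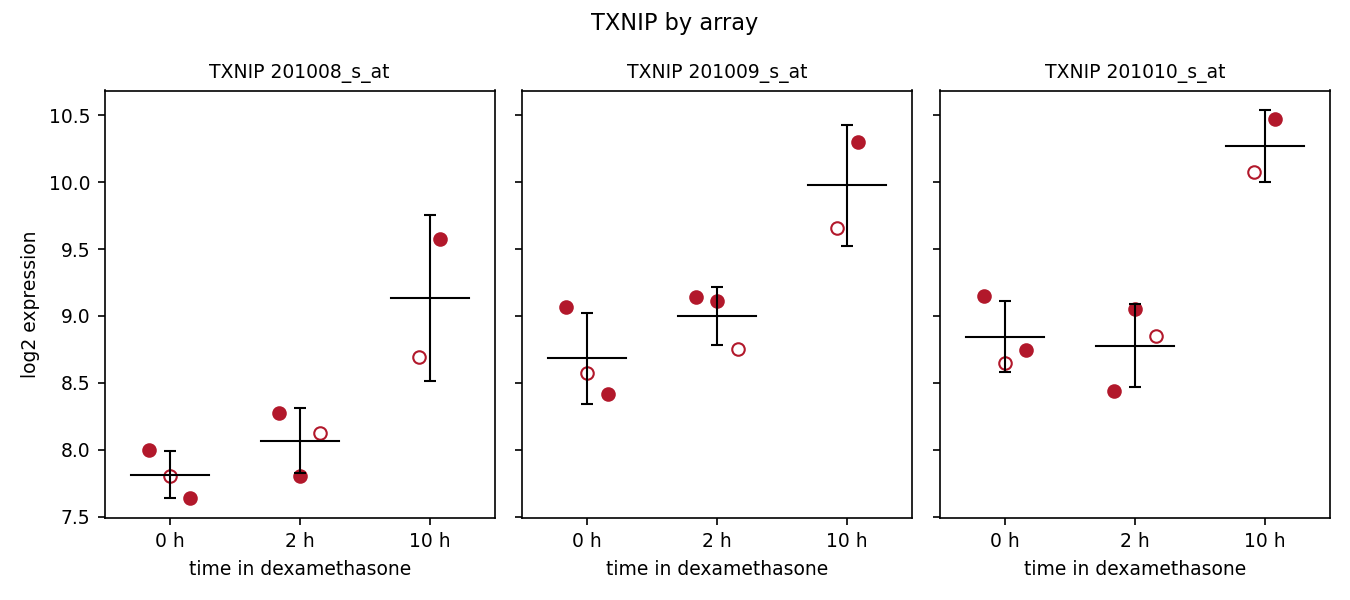
Log2 expression of the 3 TXNIP probe sets on each array at 0 h (3 arrays), 2 h (3 arrays) and 10 h (2 arrays). Lines are means, bars are SD, and open points are the 3 arrays with the lowest medians. In each panel both 10 h arrays lie above all 0 h and 2 h arrays, and the open 10 h point is the lower of the pair.

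Among the 134 probe sets raised at 10 h against 0 h, whose median log2 fold change was 1.66, the 3 of TXNIP ranked 95th, 110th and 114th by size. The rise was thus below the middle of that list. Within the 3 arrays with the lowest medians, the differences of 10 h minus 0 h were 1.44, 0.89 and 1.08 on 201010_s_at, 201008_s_at and 201009_s_at of TXNIP. Within the other 5 arrays they were 1.52, 1.76 and 1.56. These within-set differences rest on 1 array at 10 h and have no test of their own.

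All 60 values of TXNIP at 10 h against 0 h under alternative settings were positive, from 0.88 to 1.76 on the log2 scale, but calls were lost. The sign is no separate support. Both 10 h arrays lay above all 0 h arrays, so leaving out an array could not reverse it. Some settings, such as trended variances or a filter, repeat the reported fold change exactly. Without 10 h replicate 2 none of the 3 probe sets of TXNIP was called: 201010_s_at was at 1.24 (limma adjusted p = 0.363), 201009_s_at at 0.97 (0.934) and 201008_s_at at 0.88 (0.979). Without 0 h replicate 2, none was called either, at 1.33 on 201010_s_at, 1.24 on 201009_s_at and 1.31 on 201008_s_at (adjusted p = 0.0510, 0.147 and 0.120). Without 10 h replicate 1, only 201008_s_at remained called, at 1.76, and without 0 h replicate 3 only 201010_s_at did, at 1.38. Leaving out 0 h replicate 1 or 2 h replicate 3 ended the call of 201008_s_at, at 1.41 and 1.32, and leaving out 2 h replicate 2 that of 201009_s_at, at 1.29. Array weights also ended the call of 201009_s_at, at 1.04, as did using only the 0 h and 10 h arrays (adjusted p = 0.0524). Centring each array on its median (adjusted p = 0.0504) or fitting that median as a covariate (0.0552) ended the call of 201008_s_at. Without the 3 arrays with the lowest medians, which leaves 1 array at 10 h, none was called, at 1.52, 1.76 and 1.56 for 201010_s_at, 201008_s_at and 201009_s_at (adjusted p = 0.319, 0.122 and 0.241). With the probe sets of TXNIP averaged into 1 value per gene, its rise was 1.35 (limma adjusted p = 0.00114 over 19775 genes).

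**Figure D2:**
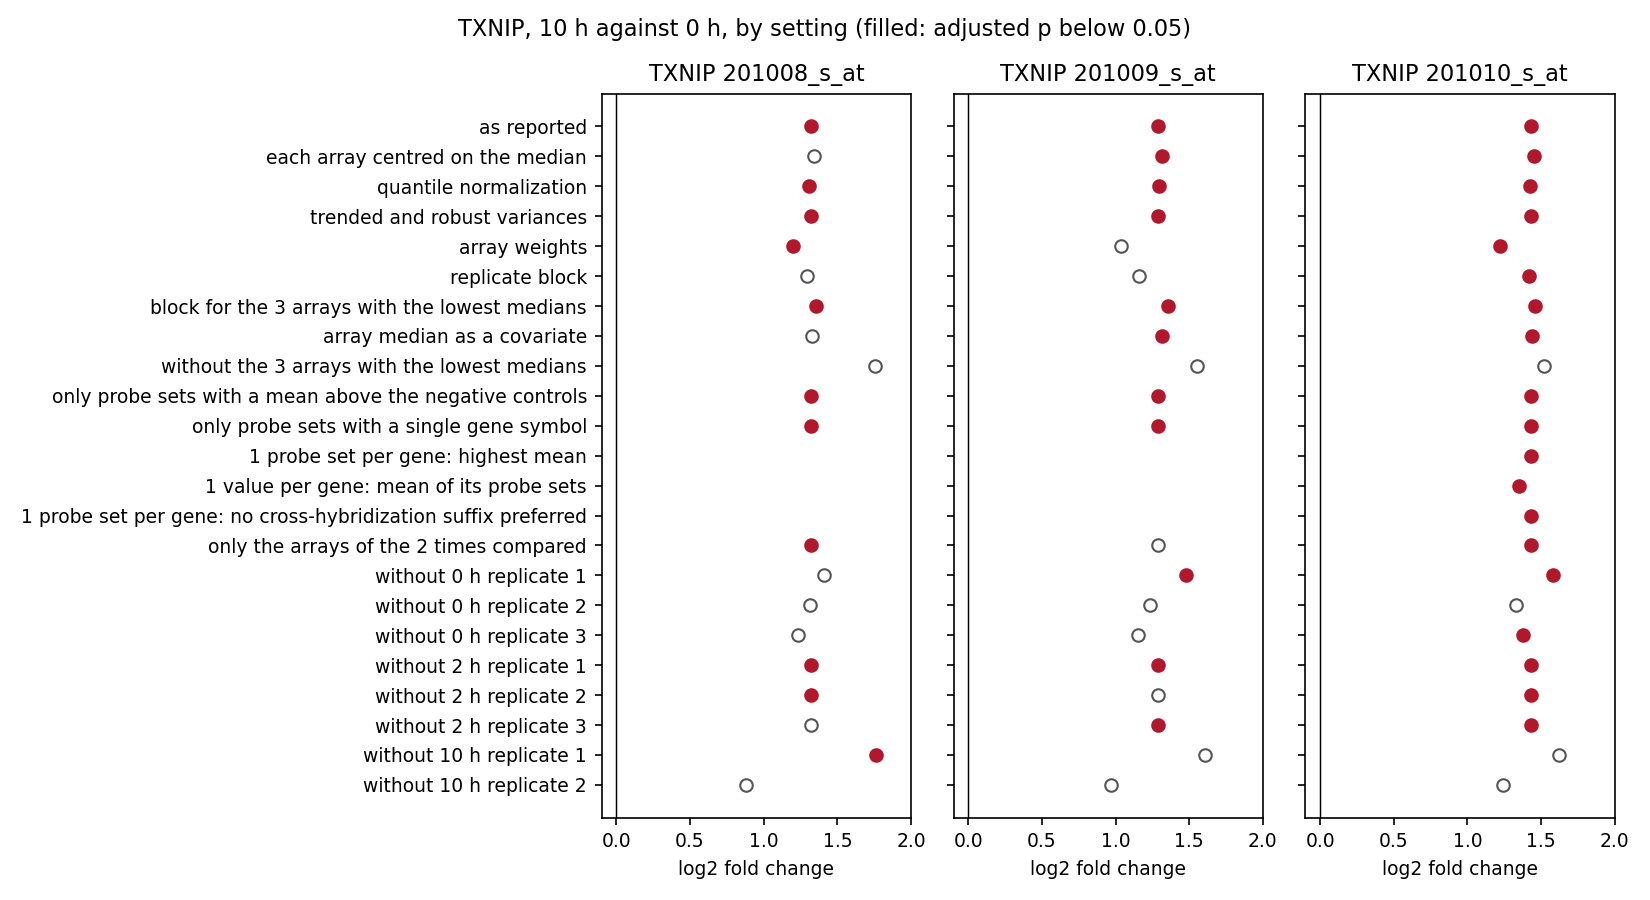
Log2 fold change of each TXNIP probe set at 10 h against 0 h, as reported and under each alternative setting. Filled points have an adjusted p below 0.05. The 3 settings with 1 value per gene are drawn beside 201010_s_at, and 1 of them is the mean of all 3 probe sets. All points lie to the right of 0, between 0.88 and 1.76, and the open ones show which settings end a call.

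The shorter treatment asked what had moved after 2 h. None of the 14 probe sets was called at 2 h against 0 h, and none had an unadjusted p below 0.05. Over all probe sets, 5 were called, or 0.00916%, and 1.1% had an unadjusted p below 0.05. TXNIP had −0.07 ± 0.21 (SE) on 201010_s_at, with a 95% interval of 0.70- to 1.30-fold, 0.25 ± 0.23 on 201008_s_at and 0.32 ± 0.22 on 201009_s_at. The arrays of the 2 times overlapped on all 14 member probe sets, while on 4.13% of all probe sets they did not. TSC22D3 was called at 2 h, at 2.78 on its brightest probe set (limma adjusted p = 2.16e-05), and whether it differed from TXNIP was not tested. Its probe sets 207001_x_at, at 0.62, and 235364_at were not called, and none of the 3 of FKBP5 was. In the list of known glucocorticoid-raised genes, 3 of 30 probe sets, of 2 genes, were called at 2 h.

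The step between the treated times was tested on its own. At 10 h against 2 h, 201010_s_at of TXNIP rose by 1.50 ± 0.23 (SE; 2.82-fold, interval 1.99 to 3.98, limma adjusted p = 0.0152). The other TXNIP probe sets had 1.07 ± 0.25 (adjusted p = 0.326) and 0.97 ± 0.25 (adjusted p = 0.461) and were not called, although both 10 h arrays lay above all 2 h arrays on each. Thus 1 of 14 members was called higher and 0 lower, where 0.106% of all probe sets were called higher and 0.00183% lower. All 3 of TXNIP had an unadjusted p below 0.05, as 2.53% of all probe sets had, and arrays that did not overlap, as 5% of all probe sets had in this direction. That call was lost without 2 h replicate 1 (1.33, adjusted p = 0.0592), without 2 h replicate 3 (1.53, 0.0515), without 10 h replicate 1 (1.69, 0.0802), without 10 h replicate 2 (1.30, 0.407) and without the low-median arrays (1.72, 0.367). A moderated F test over the 3 times also called 201010_s_at alone among the 14 (adjusted p = 0.0132), where 0.192% of all probe sets passed. Without 10 h replicate 2 it was not called.

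**Figure D3:**
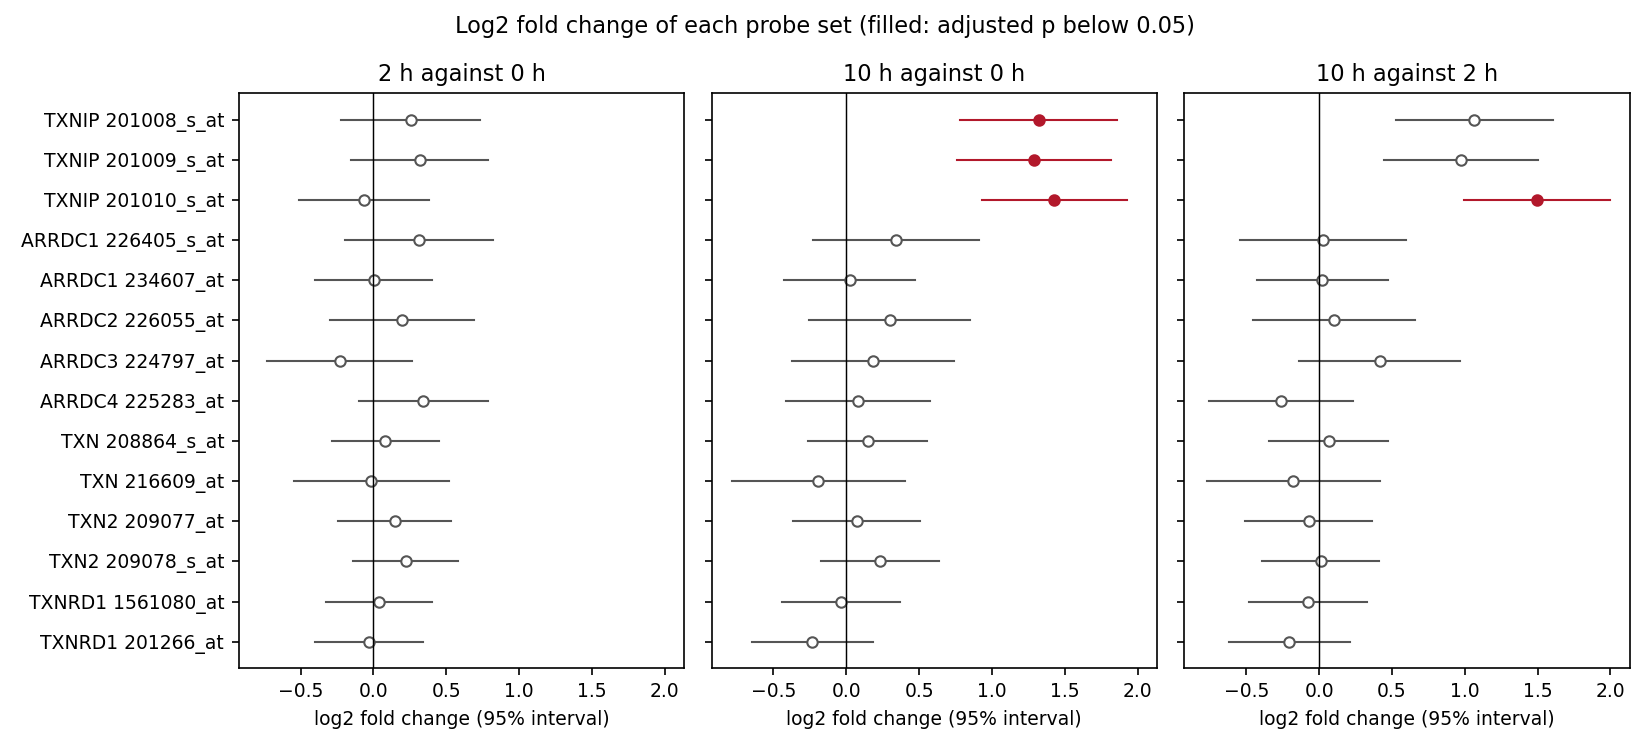
Log2 fold change with its 95% interval for each of the 14 probe sets, with a panel for each of the 3 comparisons of times. Filled points have an adjusted p below 0.05. The filled points are the 3 TXNIP probe sets at 10 h against 0 h and 201010_s_at of TXNIP at 10 h against 2 h.

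Of the other alpha-arrestins, none passed at either time. ARRDC1, which helps vesicles bud from the plasma membrane, read 6.35, 6.67 and 5.68 at 0 h, 6.33, 6.61 and 6.71 at 2 h, and 6.82 and 6.33 at 10 h on 226405_s_at. The arrays of the 3 times overlapped, and the log2 fold change at 10 h against 0 h was 0.34 (95% interval −0.23 to 0.91). The other ARRDC1 probe set, 234607_at, lay below the negative control limit on all 8 arrays and had 0.02. The antisense transcript ARRDC1-AS1, which has a probe set of its own, had 0.02 at 10 h against 0 h.

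ARRDC2, a less studied relative, read 6.66, 6.19 and 5.83 at 0 h, 6.63, 6.63 and 6.0 at 2 h, and 6.39 and 6.66 at 10 h. Its times overlapped as well, with a log2 fold change of 0.30 at 10 h (−0.26 to 0.85). ARRDC3, an adaptor in the trafficking of the beta-2 adrenergic receptor, read 5.97, 5.43 and 5.43 at 0 h, 5.48, 5.11 and 5.55 at 2 h, and 5.38 and 6.21 at 10 h. Its 2 arrays at 10 h stood on both sides of most others. ARRDC3 had 0.18 at 10 h against 0 h (−0.37 to 0.74), −0.23 at 2 h against 0 h and 0.41 at 10 h against 2 h (−0.14 to 0.97). In the 3 arrays with the lowest medians its difference of 10 h minus 0 h was −0.05, and in the other 5 it was 0.51.

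ARRDC4, the closest relative of TXNIP in known control by glucose, lay near the negative controls. It read 4.22, 4.43 and 4.40 at 0 h, 4.75, 4.93 and 4.40 at 2 h, and 4.10 and 4.77 at 10 h, and 3 of 8 arrays exceeded 4.73. ARRDC4 had 0.08 at 10 h against 0 h (−0.41 to 0.58) and 0.34 at 2 h against 0 h (−0.10 to 0.78).

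The thioredoxin system itself did not pass the test. TXN, cytosolic thioredoxin, read 12.13, 11.90 and 12.19 at 0 h, 12.18, 12.26 and 12.02 at 2 h, and 12.16 and 12.28 at 10 h on 208864_s_at. Its spread over 8 arrays was small, and its log2 fold change at 10 h against 0 h was 0.15 with an interval of −0.26 to 0.55, or 0.83- to 1.47-fold. The other TXN probe set, 216609_at, had −0.19 (−0.79 to 0.40), and its 10 h arrays, at 5.82 and 6.85, lay apart by more than its other times did. The 2 probe sets of TXN correlated at 0.289 over the 8 arrays.

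TXN2, the mitochondrial thioredoxin, had 0.07 (−0.36 to 0.51) on 209077_at and 0.23 (−0.17 to 0.64) on 209078_s_at at 10 h against 0 h. On 209078_s_at the arrays read 8.52 and 8.70 at 10 h, against 8.37, 8.49 and 8.27 at 0 h, so they did not overlap. With the 3 of TXNIP this made 4 of 14 members with both 10 h arrays above all 0 h arrays, an arrangement that 5.92% of all probe sets showed. TXNRD1, cytosolic thioredoxin reductase, read 10.20, 10.12 and 10.23 at 0 h, 10.23, 10.07 and 10.16 at 2 h, and 9.74 and 10.16 at 10 h on 201266_at. The first 10 h array was the lowest of the 8 and the second lay among the others. The log2 fold change at 10 h against 0 h was −0.23 (−0.65 to 0.18). The other TXNRD1 probe set, 1561080_at, was below the negative control limit on all 8 arrays and had −0.04.

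**Figure D4:**
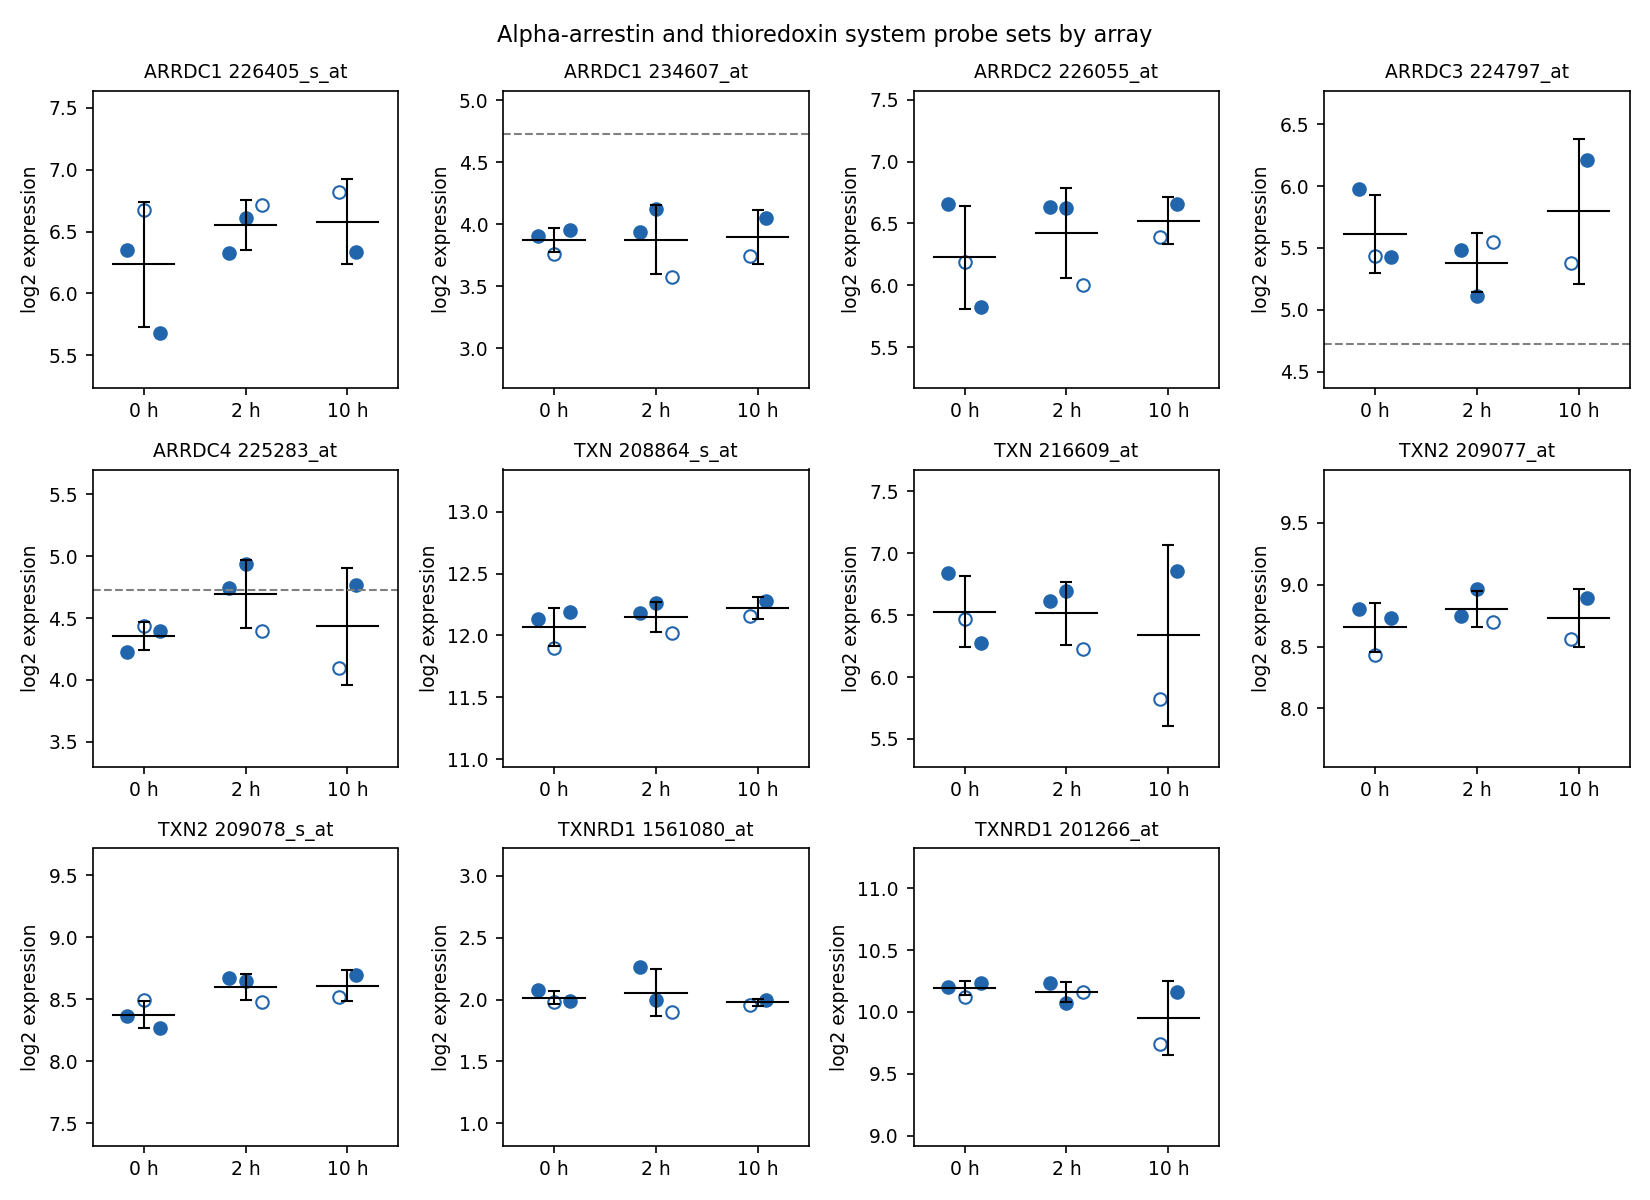
Log2 expression of the 11 probe sets of the ARRDC genes, TXN, TXN2 and TXNRD1 on each array, with means, SD and open points as in the TXNIP plot. Every panel spans 2.4 log2 units, and the dashed line, where in range, is the highest negative control value of 4.73. In all panels but TXN2 209078_s_at the 10 h arrays overlap the 0 h arrays.

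Over the 11 probe sets other than those of TXNIP, 8 had a positive and 3 a negative log2 fold change at 10 h against 0 h. Their median was 0.08, beside −0.03 over all probe sets, and they ran from −0.23 to 0.34. The lowest limit among their 95% intervals was 0.58-fold, for TXN 216609_at, and the highest was 1.88-fold, for ARRDC1 226405_s_at. The smallest unadjusted p was 0.220 at 10 h and 0.122 at 2 h. None of these 11 was called in any comparison, or in any of 681 values under the 22 alternatives. Whether TXNIP moved more than its relatives was not tested.

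Genes around TXNIP were read from lists. The list of MondoA, MLX and glucose-sensing genes held 30 probe sets of 13 genes. At 10 h against 0 h, 3 probe sets, of 2 genes, were called higher and 0 lower, and the list median was 0.02. Which of these genes MondoA controls was not tested. Over all probe sets 0.245% were called higher. The list count was 1 without 10 h replicate 1, without 10 h replicate 2 and without the low-median arrays. DDIT4, an inhibitor of mTORC1 that also appears among the TXNIP partner proteins, read 10.22, 9.78 and 10.18 at 0 h, 11.04, 10.90 and 10.94 at 2 h, and 11.20 and 11.32 at 10 h. Each later time lay wholly above the one before. At 10 h against 0 h it rose by 1.20 ± 0.20 (SE; limma adjusted p = 0.0125), and that call was lost without 10 h replicate 1 (1.26, adjusted p = 0.133) or 10 h replicate 2 (1.14, adjusted p = 0.305). Without the 3 arrays with the lowest medians its adjusted p was 0.261. DDIT4 was the 1 probe set called of 13 for 9 genes of TXNIP partner proteins, whose median was −0.02. PFKFB2, which makes an activator of glycolysis, read 7.23 and 6.13 at 10 h, against 4.32, 4.09 and 4.06 at 0 h on 226733_at. It rose by 2.53 ± 0.27 (SE; limma adjusted p = 0.000262) over a 0 h level below the negative control limit. At 10 h against 2 h that probe set was the only one called in the 6 lists, at 1.73 (limma adjusted p = 0.0159). Dropping 2 h replicate 2 (1.74) or 2 h replicate 3 (1.61) ended that call, as did dropping 10 h replicate 1 (1.18) or the low-median arrays (1.05). Quantile normalization also ended it (1.75, adjusted p = 0.0612).

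A second PFKFB2 probe set, 209992_at, rose by 1.52 at 10 h against 0 h (limma adjusted p = 0.0465). Its 0 h arrays, at 4.03, 3.68 and 4.38, all lay below the negative control limit, so the size of the change is uncertain. Leaving out 0 h replicate 1 (1.52) or 0 h replicate 2 (1.35) ended that call, as did leaving out 10 h replicate 1 (1.86), 10 h replicate 2 (1.18) or the low-median arrays (1.69). The other 2 PFKFB2 probe sets, the brightest among them, had 0.18 and 0.66 and were not called. MLXIP, which encodes MondoA, had between −0.23 and 0.31 over 4 probe sets and its partner MLX between −0.17 and 0.11 over 6, none called. The glucose transporters SLC2A1 and SLC2A3 had between −0.10 and 0.23 over 5 probe sets, none called. PFKFB3 had the lowest value of the list at 10 h against 0 h, −0.59. It read 5.56 and 6.16 at 10 h, against 6.60, 6.30 and 6.45 at 0 h. HK2 had the lowest at 10 h against 2 h, −0.52 on 202934_at. Neither was called. At an unadjusted p below 0.05 the list had 4 higher and 1 lower at 10 h against 0 h, as 2.68% of all probe sets had. At 2 h against 0 h no probe set of this list was called, 3 had an unadjusted p below 0.05, and DDIT4 was at 0.90 ± 0.18 (limma adjusted p = 0.627). With trended and robust variances DDIT4 passed at 2 h (adjusted p = 0.0164).

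Of 67 probe sets of 35 thioredoxin-fold oxidoreductases and peroxide-removing enzymes, none was called at any time, and the median at 10 h was −0.01. At an unadjusted p below 0.05 there were 2 higher and 1 lower at 10 h against 0 h, and 1 higher and 0 lower at 2 h against 0 h. Over all probe sets 2.68% had such a p at 10 h against 0 h and 1.1% at 2 h against 0 h, so the list's counts were near those shares. GLRX, cytosolic glutaredoxin, accounted for both higher ones. It read 9.50 and 9.14 at 10 h, against 8.30, 8.34 and 8.01 at 0 h on 209276_s_at, and the arrays did not overlap. Its log2 fold change was 1.10 ± 0.22 on that probe set (SE; limma adjusted p = 0.0609) and 0.92 ± 0.20 on 206662_at (adjusted p = 0.0903). With trended and robust variances both GLRX probe sets passed (adjusted p = 0.0145 and 0.0239). PRDX3, the mitochondrial peroxiredoxin, was at −0.40 ± 0.19 (adjusted p = 1).

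The NRF2 pathway, which drives many antioxidant genes, had none of 37 probe sets of 16 genes called in any comparison, and the median at 10 h was −0.09. At 10 h against 0 h none of its probe sets had an unadjusted p below 0.05, as 2.68% of all probe sets had. At 2 h against 0 h, 1 had, where 1.1% of all did. It was BACH1 204194_at, higher by 0.66, with mean log2 levels of 5.38 at 0 h and 6.03 at 2 h. GCLM, a subunit of the enzyme that begins glutathione synthesis, was at 0.38 on 236140_at, a dim probe set, and SLC7A11, the cystine transporter, at −0.44 on 209921_at. Ubiquitin ligases and other partners of alpha-arrestins had 0 of 35 probe sets called and 0 with an unadjusted p below 0.05 at 10 h. The 2 members with the smallest unadjusted p, ITCH and WWP1, were at −0.47 and −0.35. The other arrestins and relatives likewise had 0 of 15 called and 0 with an unadjusted p below 0.05, with ARRB1, beta-arrestin 1, at −0.20 and VPS26A, a retromer subunit, at 0.16.

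**Figure D5:**
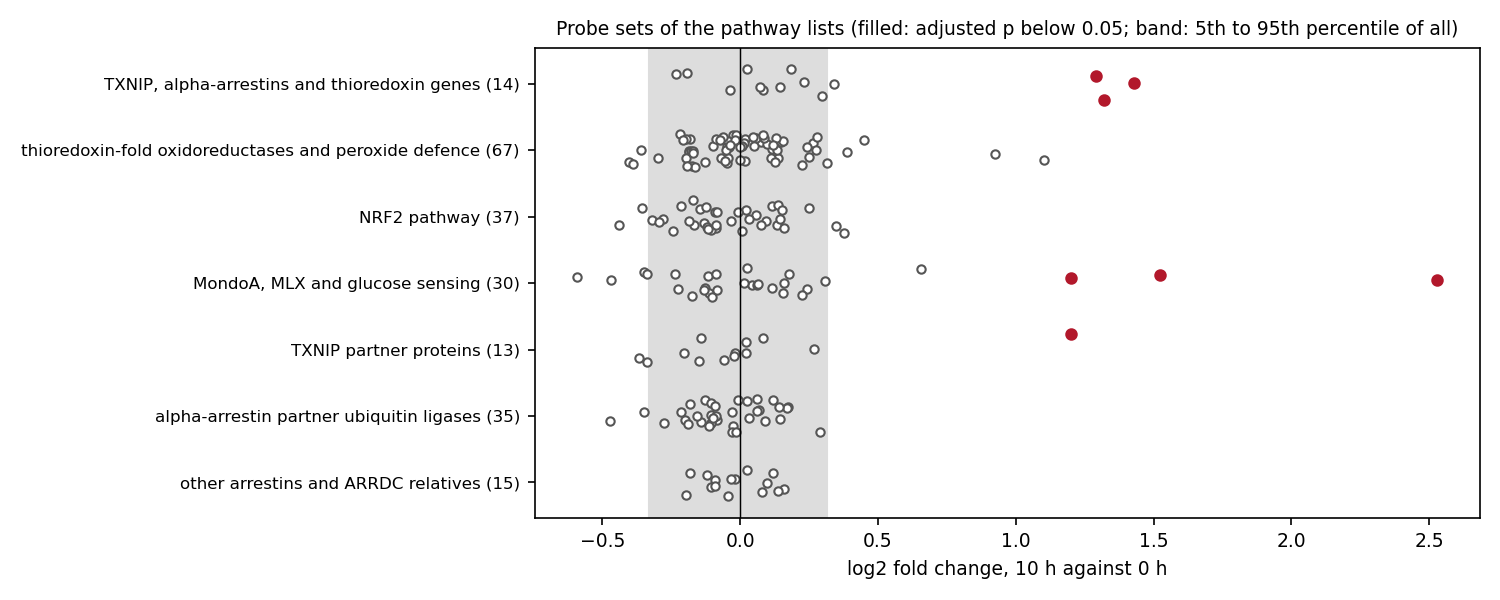
Log2 fold change at 10 h against 0 h of each probe set in the member group and in 6 pathway lists, with the number of probe sets in parentheses. Filled points have an adjusted p below 0.05, and the grey band runs from the 5th to the 95th percentile of all probe sets, −0.33 to 0.32. The filled points are TXNIP (3), PFKFB2 (2) and DDIT4, which is in 2 lists.

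The genes whose profile over the 8 arrays was most like that of 201010_s_at of TXNIP were CAMK1D, AZI2, RCAN1, USP53 and CPNE4. Their Pearson correlations with it were 0.969, 0.959, 0.949, 0.943 and 0.939, among 3020 probe sets above the negative controls with a range of at least 1. All share the same 8 arrays, and 31 of the 3020 exceeded 0.9. These genes were picked for likeness to a profile that is high only at 10 h. Their high 10 h levels and the p-values below therefore follow in part from the selection and are no separate support. RCAN1, an inhibitor of the phosphatase calcineurin, read 11.04 and 11.27 at 10 h, against 9.29, 8.76 and 9.27 at 0 h. AZI2, an adaptor of the kinase TBK1, read 9.71 and 9.75 at 10 h, against 7.87, 7.55 and 7.96 at 0 h. USP53, a member of the ubiquitin-specific protease family, read 6.79 and 7.18 at 10 h, against 5.38, 4.77 and 4.99 at 0 h. These 3 were called at 10 h against 0 h, at 2.05, 1.94 and 1.94 for RCAN1, AZI2 and USP53 (limma adjusted p = 0.000187, 0.000223 and 0.000659), while CAMK1D, a calmodulin-dependent kinase, at 0.86 (adjusted p = 0.161) and CPNE4, a copine, at 0.96 (adjusted p = 0.346) were not.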

How the data were processed

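Total RNA of 8 samples was measured on single-colour arrays with 54675 probe sets. The authors deposited log2 values made with RMA, per the submitters' processing notes. Not given in the sources used here are its version, a genome build and whether all 8 arrays were normalized together. In general RMA corrects background, normalizes quantiles and combines the probes of a set. The medians of the arrays ran from 4.68 to 5.01. Quantile normalization and median centring were among the alternatives. Depth does not apply to arrays; their number limits the precision. At most 0.269% of values were identical between any 2 arrays, so all 8 were kept as separate samples.

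Groups came from the stated time. Symbols came from the platform annotation, and the Entrez identifiers of all 14 member probe sets matched the RefSeq gene table. The 62 control probe sets were left out. The other 54613 were fitted in limma 3.58.1 (R 4.3.3) with a mean per time over all 8 arrays, leaving 5 residual degrees of freedom, and tested on simulated data first. Calls are two-sided Benjamini-Hochberg adjusted p below 0.05, and fold changes carry the moderated SE. In bulk RNA, fewer cells with a transcript and less of it per cell cannot be told apart. The named genes were all members, and up to 4 called members of each list or else the 2 with the smallest unadjusted p. TSC22D3, FKBP5 and NR3C1 were named as a check, and so were the 5 profiles most like TXNIP for comparison. MLXIP, MLX, SLC2A1, SLC2A3, PFKFB3, HK2, BACH1 and ARRDC1-AS1 were named besides, after their values were seen. The members, lists and alternatives were chosen with earlier results of these data known. Alternatives covered normalization, variance model, array weights, blocks, filters, 1 value per gene and leaving out each array.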

Additional observations from a re-analysis of the deposited data

How the results depend on the processing

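The number of member probe sets called at 10 h against 0 h, 3 as reported, was 0 to 3 when an array was left out in turn. It was 0 without the 3 arrays with the lowest medians and 1 each with the brightest probe set per gene, with averaged probe sets and with probe sets free of a cross-hybridization suffix preferred, which allow at most 1 call per gene. At 10 h against 2 h the count of 1 was 0 to 1 when an array was left out and 0 without the 3 arrays with the lowest medians. At 2 h against 0 h it was 0 in all 22 alternatives. For any change over time the count of 1 was 3 after quantile normalization, 3 with trended and robust variances, 2 when the 3 arrays with the lowest medians formed a block, 0 without them, and 0 to 1 when an array was left out. Some of these settings used fewer arrays or features and others used all of them, and the cause of the moves was not tested. No member changed direction with a call. With a replicate block the count at 10 h against 0 h was 1, and 201010_s_at of TXNIP kept its call (1.42, limma adjusted p = 0.0301). Whether the replicate numbers pair the arrays is not settled. Deviations from the mean of each time correlated at −0.279 to 0.28 over the 7 same-numbered pairs, with 1 above 0.1. A pair with different numbers, 0 h replicate 2 and 2 h replicate 3, reached 0.286. The deviations of the 2 arrays at 10 h are mirror images, so these values cannot exclude a pairing. The block moved no other count of members. In the glucose-sensing and partner protein lists it ended the calls at 10 h against 0 h of DDIT4 (1.23, limma adjusted p = 0.0509) and PFKFB2 209992_at (1.47, adjusted p = 0.0780), which left the first list 1 call in place of 3 and the second 0 in place of 1. Probe sets called over the whole table at 10 h against 0 h numbered 137 as reported, 34 without the 3 arrays with the lowest medians and 215 with those arrays as a block. Among list genes, GLRX was called on at least 1 probe set in 6 of 19 alternatives. Levels near the negative controls limit what can be seen of ARRDC4, and on 2 probe sets of ARRDC1 and TXNRD1.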
